A study of Mus musculus with 2 samples.

Results

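The genes described here are 10 mouse genes of growth control that are imprinted, that is, expressed mainly from the copy inherited from 1 parent. They are H19, Meg3, Rian, Cdkn1c and Grb10, usually expressed from the maternal copy, and Dlk1, Peg3, Plagl1, Mest and Ndn, usually expressed from the paternal copy. They were chosen by name, as rows of the FPKM table whose gene symbol equals 1 of these names, with rows naming several genes left out. Of the 10 genes, 9 had a row of their own among the 35798 rows of the table, and Rian had none. FPKM, a fragment count corrected for transcript length and for library size, is summed over both parental copies here, so the values carry no information on which copy was read.

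The RNA came from bone marrow of C57BL/6 mice. The sort kept GFP+ cells, in which the Nes-gfp transgene reports perivascular stromal cells of the blood stem cell niche, and removed cells with CD45 (leukocytes), CD31 (endothelium) or Ter119 (red cells). The control library came from adult Nes-gfp littermates. The other, here the mutant library, came from adult Nes-gfp;Mx1-cre;JAK2-V617F mice, in which interferon-inducible Mx1-cre switches on an activated kinase that drives myeloproliferative neoplasms. The control genotype as labelled carries neither Mx1-cre nor the JAK2 allele, so their effects cannot be told apart. Both groups received pIpC, the interferon inducer, and were collected 6 weeks later. A library is a pool of 3 animals, and each genotype has 1, so no value below has a replicate error, no test between the genotypes was possible, and every difference is one between 2 pools.

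Imprinted genes of this kind act on the size of embryos and placentas. In broad terms, several maternally expressed members restrain growth and several paternally expressed members promote it, and many are silenced in most tissues after birth. In adult bone marrow they are best known from stem cells, where Cdkn1c, H19 and the Meg3 region have been linked to quiescence, and from progenitors of fat, bone and muscle, where Dlk1, Mest, Peg3 and Ndn mark or restrain immature cells.

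The summed FPKM of the 9 rows was 158 in the control library and 167 in the mutant library. In the control library the members ran, from highest to lowest, Grb10, Meg3, Peg3, Plagl1, Mest, Cdkn1c, H19, Ndn and Dlk1. In the mutant library the order was Peg3, Meg3, Grb10, Cdkn1c, Plagl1, H19, Mest, Ndn and Dlk1. In both libraries Grb10, Meg3 and Peg3 lay at the top and Ndn and Dlk1 at the bottom. With 1 library per group, neighbours in these orders cannot be separated from replicate spread.

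**Figure D1:**
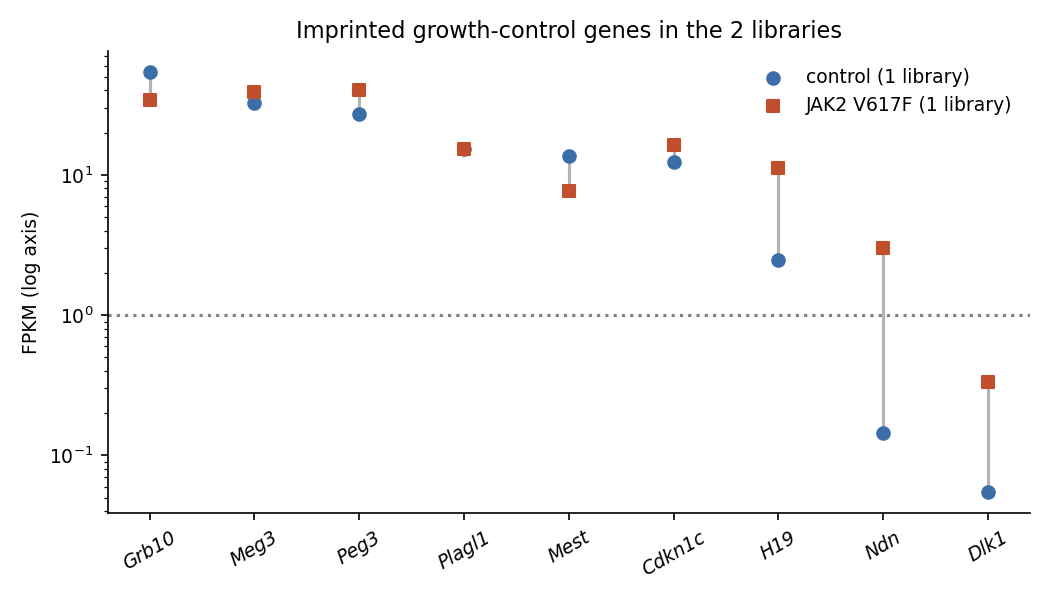
FPKM (log axis) of the 9 members with a row of their own, ordered by the control library; circles are the control library, squares the mutant library, and the dotted line marks 1 FPKM. H19 (2.45 to 11.1 FPKM) and Ndn (0.145 to 3.02 FPKM) are the members above the line in at least 1 library whose symbols lie farthest apart.

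Differences are given as log2((JAK2 V617F FPKM + 1)/(control FPKM + 1)), which understates the change of low genes, and a member counted as higher or lower at 2-fold or more on this scale. Dlk1 stayed below 1 FPKM in both libraries, and the other 8 reached it in at least 1. In the mutant library H19 and Ndn were higher by this measure, none was lower, and 6 were within 2-fold. Ndn rests on about 1 control fragment and was within 2-fold with a pseudocount of 5 FPKM (log2 ratio 0.64). That leaves 1 of 8 members higher, beside 3.98% of all rows in that setting. Across all 15118 rows that name 1 gene and reached 1 FPKM, 13.8% were at least 2-fold higher, 11.4% at least 2-fold lower and 25.2% past 2-fold in either direction. Over the 11910 of these rows that RefSeq lists as protein-coding or lncRNA genes the shares were 10.5%, 9.07% and 19.5%. The 2 of 8 members past 2-fold are thus near the share of all rows. The median log2 ratio of the 8 members was 0.31, beside -0.03 over all these rows, with 6 members above 0 and 2 below.

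**Figure D2:**
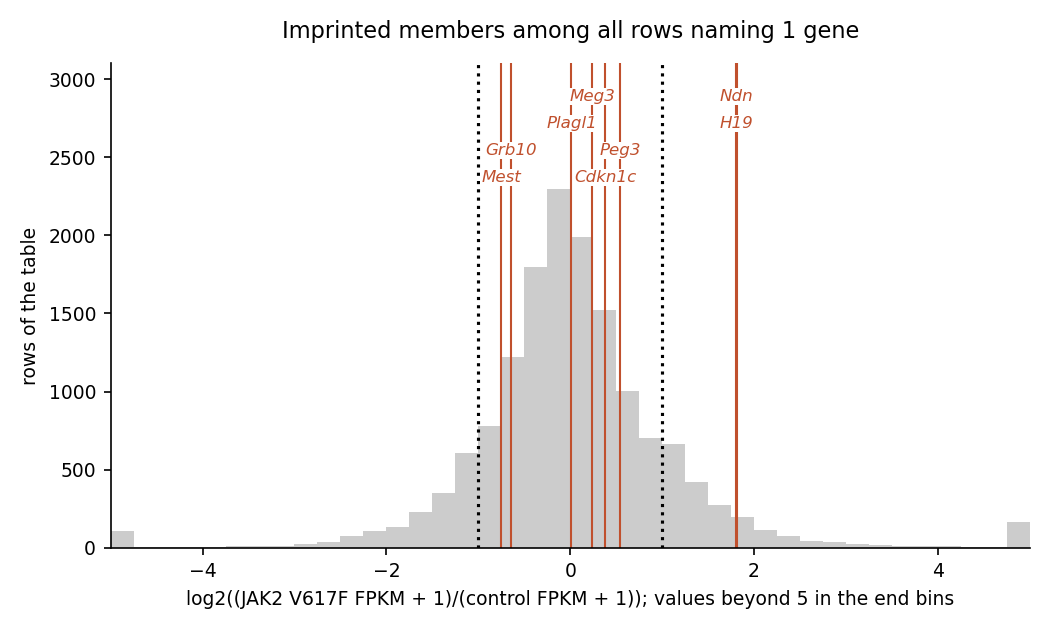
Number of table rows (vertical axis) by log2((JAK2 V617F FPKM + 1)/(control FPKM + 1)) (horizontal axis) for the 15118 rows naming 1 gene at 1 FPKM or more in a library; vertical lines mark the 8 members and dotted lines a 2-fold difference. Mest (-0.75) and Grb10 (-0.64) lie left of 0, Plagl1 at 0.01, Meg3, Cdkn1c and Peg3 between 0.24 and 0.54, and H19 and Ndn together at 1.81.

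The depth behind these values was read from the steps in which low FPKM values fall, which put 1 fragment at 0.103 FPKM in the control library and 0.088 FPKM in the mutant library for a transcript of 2 kb. The FPKM denominators were then about 5280000 and 6170000 fragments. Of all 35798 rows, 16913 were above 0 in the control library and 18883 in the mutant library. The numbers of fragments below are approximate, and the intervals are exact (Clopper-Pearson) 95% intervals of the ratio that cover counting error only, not the spread between animals or amplifications.

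Among the non-coding RNAs, H19 differed between the pools and Meg3 stayed close. H19, a spliced RNA with no protein product that lies beside Igf2 and carries a growth-restraining microRNA, was at 2.45 FPKM in the control library and 11.1 FPKM in the mutant library (log2 ratio 1.81). Its locus is chr7:142575529-142578143 on the minus strand of GRCm38, the same span as in GENCODE vM21. On its single GENCODE basic transcript of 2286 nt these values stand for about 28 and 146 fragments. The FPKM ratio was 4.52 with a counting interval of 2.96 to 6.94, so the difference exceeded counting error. Of all rows tested, 4.37% had a log2 ratio at least as high as that of H19.

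Meg3, the growth-inhibiting non-coding RNA of the Dlk1-Dio3 region, was at 32.6 FPKM in the control library and 38.8 FPKM in the mutant library (log2 ratio 0.24; chr12:109541001-109571726, plus strand). The FPKM ratio was 1.19. Its GENCODE basic transcripts run from 706 to 14548 nt, and the interval was 0.907 to 1.57 for the shortest and 1.13 to 1.25 for the longest. Meg3 was among the 3 most abundant members in both libraries, and 22.4% of rows in the control library and 17.8% in the mutant library had a higher FPKM. The same span holds AC152063.3, a row at 4.30 and 13.4 FPKM (log2 ratio 1.44), and without stated strand use the reads of the pair cannot be told apart. Rian, the non-coding RNA that hosts small nucleolar RNAs downstream of Meg3, has no value under the rule.

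These RNAs are also precursors of microRNAs. From RefSeq (GRCm38.p6), 13 mature microRNAs lie inside 4 members on the same strand, 2 in H19, 3 in Meg3, 6 in Rian and 2 in Mest. The products of H19, Meg3 and Mest (with miR-770 for Meg3) are shown because the host RNA is what the table measured. Capitals mark the seed, bases 2 to 8 counted from the 5′ end, and no 2 of the 13 share a seed.

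miR-675-5p: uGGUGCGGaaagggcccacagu
miR-675-3p: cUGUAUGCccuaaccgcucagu
miR-770-5p: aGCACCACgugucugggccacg
miR-770-3p: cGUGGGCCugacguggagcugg
miR-335-5p: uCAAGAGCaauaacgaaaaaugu
miR-335-3p: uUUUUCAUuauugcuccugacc

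The miR-675 pair lies in H19 at chr7:142577078-142577099 (3p arm) and chr7:142577112-142577133 (5p arm). The FPKM of a host RNA is not a level of its microRNA, and no row of the table names miR-675, miR-770 or miR-335.

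The growth inhibitors Cdkn1c and Grb10 lay on opposite sides of 0. Cdkn1c encodes p57, an inhibitor of cyclin-dependent kinases that holds cells in G1. It was at 12.3 FPKM in the control library and 16.4 FPKM in the mutant library (log2 ratio 0.38; chr7:143458350-143461050, minus strand). About 112 and 175 fragments stand behind these values, for an FPKM ratio of 1.33 (counting interval 1.05 to 1.71). Grb10, an adaptor that binds the insulin and IGF1 receptors and dampens their signal, was the most abundant member in the control library at 54.3 FPKM and was at 34.4 FPKM in the mutant library (log2 ratio -0.64; chr11:11930508-12038683, minus strand). Its FPKM ratio was 0.634, with a counting interval of 0.556 to 0.722 on the shortest basic transcript. Both ratios were within 2-fold, and neither counting interval included 1.

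The zinc finger genes were Plagl1 and Peg3. Plagl1 (also called Zac1) encodes a transcription factor that restrains the cell cycle and is known to bind and activate other imprinted genes, H19, Igf2, Cdkn1c and Dlk1 among them. It was at 15.2 FPKM in the control library and 15.3 FPKM in the mutant library (log2 ratio 0.01; chr10:13090691-13131694, plus strand). The FPKM ratio was 1.01 with a counting interval of 0.865 to 1.18, which includes 1. Peg3, which encodes a large zinc finger protein of muscle and other progenitors, was at 27.3 FPKM in the control library and 40.2 FPKM in the mutant library (log2 ratio 0.54; chr7:6703892-6730421, minus strand). Peg3 has the most fragments of the members with a single basic transcript, about 1228 and 2116, and a ratio of 1.47 (counting interval 1.37 to 1.58). It ranked 3 among the members in the control library and 1 in the mutant library.

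**Figure D3:**
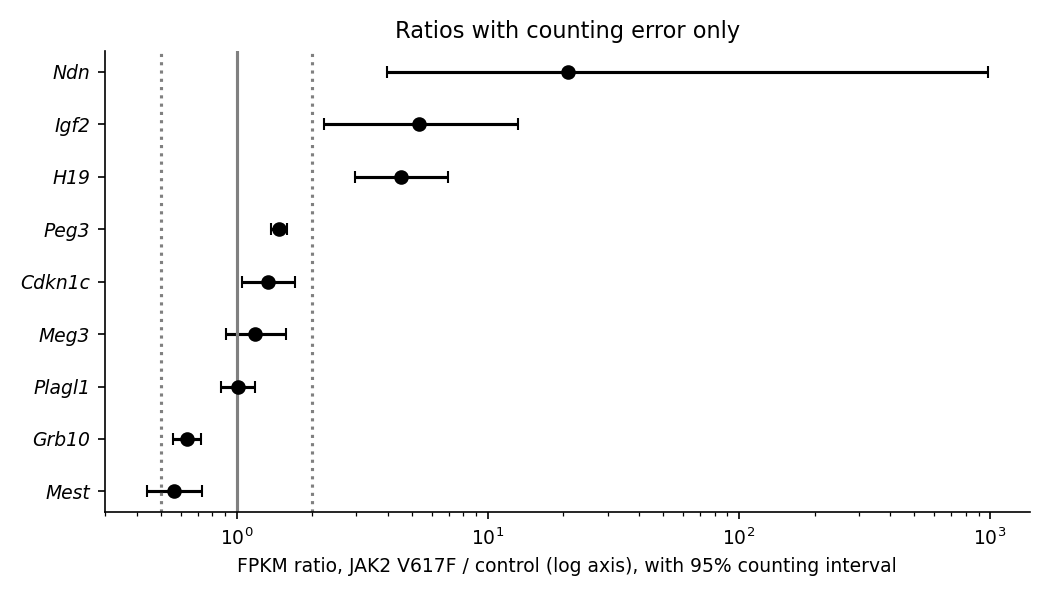
FPKM ratio, JAK2 V617F over control (log axis, points), of 8 members and of the neighbouring gene Igf2, with exact 95% counting intervals (bars) on the shortest basic transcript. The intervals of Ndn, Igf2 and H19 lie above the dotted line at 2, those of Grb10 and Mest lie below 1, those of Peg3 and Cdkn1c lie between 1 and 2, and those of Meg3 and Plagl1 include 1.

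Dlk1, Mest and Ndn are paternally expressed genes of progenitor cells. Dlk1, the membrane protein of preadipocytes that resembles a Notch ligand, was at 0.0546 FPKM in the control library and 0.336 FPKM in the mutant library (chr12:109452823-109463336, plus strand). On its annotated transcripts of 879 to 4653 nt this is 0.2 to 1.3 fragments and 1.5 to 9.3 fragments, too few for a fold. Dlk1 was thus at or near the detection limit in both pools, in the region where Meg3 was abundant. Mest, a hydrolase-like protein of growing mesoderm, was at 13.6 FPKM in the control library and 7.69 FPKM in the mutant library (log2 ratio -0.75). The FPKM ratio was 0.565, with a counting interval of 0.439 to 0.729. Its locus in the table, chr6:30723547-30896794, is shared with Copg2, a gene that overlaps it, at 26.2 and 31.0 FPKM. Without stated strand use, reads from the stretch that Mest and Copg2 share cannot be told apart.

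Ndn encodes necdin, a MAGE family protein that restrains proliferation of neural, muscle and blood progenitors. It was at 0.145 FPKM in the control library and 3.02 FPKM in the mutant library (log2 ratio 1.81; chr7:62348277-62349928, plus strand, 1 exon). On the 1652 nt of this exon, about 1 fragment was seen in the control library and 28 in the mutant library. The FPKM ratio was 20.8 and its counting interval of 3.96 to 979 is wide. The nearest imprinted genes did not share this level, since Magel2 was at 0.0974 FPKM in the control library and listed at 0 in the other, and Mkrn3 was listed at 0 in the control library and at 0.156 FPKM in the other. In bulk RNA, a change in the number of cells of a type and a change in RNA per cell cannot be told apart, for Ndn or any other member.

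Promoters of 8 members were matched in RefSeq (GRCm38.p6), in 12 windows of which the 250 bases before the transcription start were read. No window was matched for H19 or Cdkn1c. The promoters of Ndn and Grb10 are shown because Ndn was higher and Grb10 lower in the mutant library, and because they differ in CpG, the dinucleotide that carries imprinted methylation. CpG dinucleotides are in capitals. Ndn is at chr7:62348027-62348276, plus strand, and Grb10 at chr11:12037421-12037670, minus strand.

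Ndn: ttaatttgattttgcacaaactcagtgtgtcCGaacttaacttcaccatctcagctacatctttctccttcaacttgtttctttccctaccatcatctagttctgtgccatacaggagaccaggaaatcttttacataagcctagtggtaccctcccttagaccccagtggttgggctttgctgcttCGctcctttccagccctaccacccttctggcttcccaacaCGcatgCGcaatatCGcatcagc
Grb10: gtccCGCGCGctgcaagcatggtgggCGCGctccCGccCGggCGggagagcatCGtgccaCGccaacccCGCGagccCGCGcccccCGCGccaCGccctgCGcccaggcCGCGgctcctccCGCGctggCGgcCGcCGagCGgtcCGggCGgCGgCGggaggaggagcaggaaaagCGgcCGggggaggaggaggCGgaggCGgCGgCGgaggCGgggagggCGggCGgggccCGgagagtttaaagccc

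The Ndn window holds 5 CpG and the Grb10 window 40, beside a median of 6 over 32817 promoter windows of the same length. A second Grb10 window holds 8, and the windows of the other members hold 0 to 19. The data hold no methylation, so nothing follows from these counts about the copies in these cells.

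The letters GGGGCCCC, a core to which PLAGL1 is known to bind and which reads the same on both strands, were searched in the same windows. They occur in 1 of the 12 windows of members, that of Peg3, and in 0.884% of all 32817 windows. The 12 windows do not cover H19 and Cdkn1c, which had none, or Igf2, which is not a member. The Peg3 window (chr7:6730420-6730669, minus strand) is shown with the match in capitals, because Plagl1 and Peg3 are both members. A match is a description of letters, not a bound site.

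Peg3: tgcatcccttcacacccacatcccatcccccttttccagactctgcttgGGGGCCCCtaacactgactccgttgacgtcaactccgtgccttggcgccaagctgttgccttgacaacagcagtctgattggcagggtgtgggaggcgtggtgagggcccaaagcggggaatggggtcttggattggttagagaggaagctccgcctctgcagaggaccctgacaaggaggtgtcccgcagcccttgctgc

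Read by region, the members' neighbours did not follow 1 pattern. Beside H19, the paternally expressed growth factor gene Igf2 was at 2.58 FPKM in the control library and 13.7 FPKM in the mutant library (log2 ratio 2.04). The FPKM ratio of Igf2 was 5.31, and its counting interval was 2.22 to 13.2 on the shortest basic transcript and 4.06 to 7.08 on the longest. H19 and Igf2 were thus both higher in the mutant library by similar ratios with overlapping intervals. The other rows within 100 kb of H19 at 1 FPKM or more were closer to 0 or lower. Mrpl23 was at 16.8 and 21.2 FPKM, Nctc1 at 1.08 and 1.97 FPKM and Lsp1 at 46.2 and 70.8 FPKM. Tnnt3, a troponin of fast muscle whose locus in the table is the same as that of Lsp1, was at 4.03 FPKM in the control library and 0.545 FPKM in the mutant library (log2 ratio -1.70).

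Around Cdkn1c the neighbours lay below 0 while Cdkn1c lay above. The maternally expressed genes Phlda2, a restrainer of placental growth, and Slc22a18, a membrane transporter, were at 1.71 and 0.372 FPKM and at 1.13 and 0.177 FPKM in the control and mutant libraries. Nap1l4, a histone chaperone gene, was at 61.1 and 50.3 FPKM (log2 ratio -0.28). In the Dlk1-Dio3 region, Rtl1 was at 0.209 and 0.660 FPKM, and Dio3, a thyroid hormone deiodinase, was listed at 0 in the control library and at 0.565 FPKM in the mutant library. A row named for miR-410 that overlaps the non-coding RNA gene Mirg was at 1.00 and 1.54 FPKM. Beside Peg3, the zinc finger gene Zim1 was at 3.502 and 3.20 FPKM (log2 ratio -0.10). Past 2-fold beside other members were Tsga14 near Mest, at 13.1 and 4.75 FPKM, and 1700042O10Rik near Grb10, listed at 0 in the control library and at 2.82 FPKM in the mutant library.

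**Figure D4:**
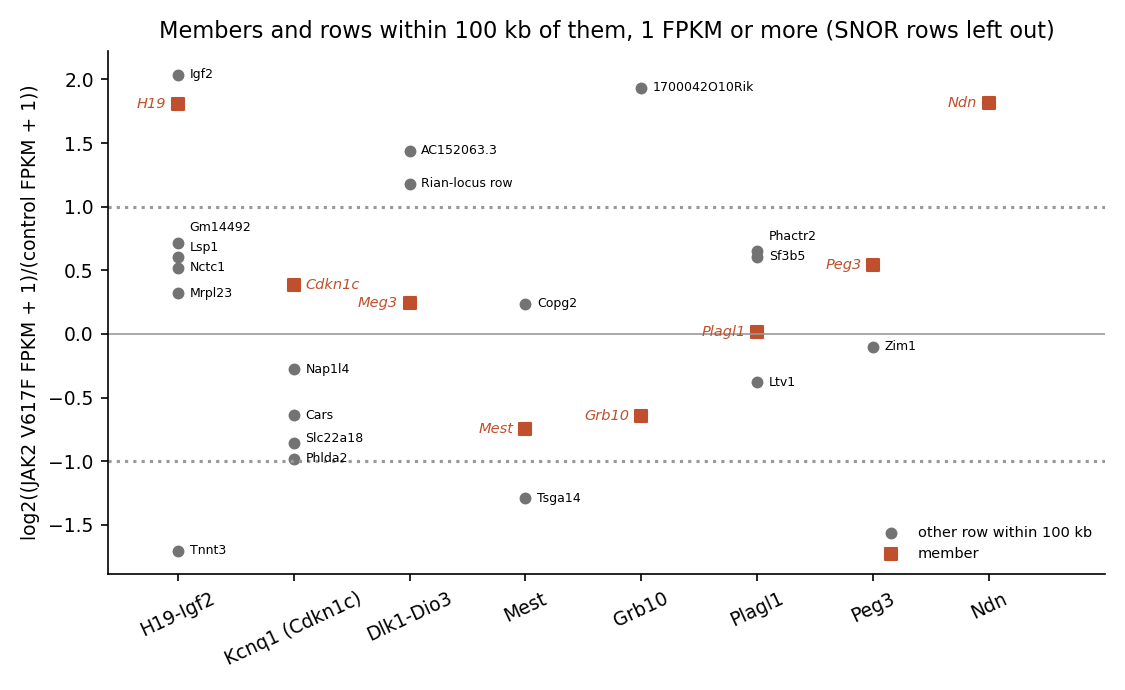
log2((JAK2 V617F FPKM + 1)/(control FPKM + 1)) of the members (squares) and of other rows within 100 kb of them (circles) that reached 1 FPKM, by imprinted region, with dotted lines at a 2-fold difference. Igf2 (2.04) lies beside H19 (1.81), whereas Cdkn1c (0.38) lies above Phlda2 (-0.98) and Slc22a18 (-0.86), its neighbours.

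Imprinted genes beyond the members showed no shared direction. A list of 65 others, some imprinted only in placenta or brain, had 54 with their own row, and 39 passed the filter. In the mutant library 4 of the 39 were higher and 2 lower by the 2-fold measure, and 19 lay above 0 and 20 below. The median log2 ratio was -0.07, beside -0.03 over all rows. After each of 3 rescalings of the libraries both medians were above 0, with that of all rows still the higher. The 6 past 2-fold are 4 higher, beside 13.8% of all rows, and 2 lower, beside 11.4%. Igf2 was the highest by log2 ratio. Asb4, a ubiquitin ligase adaptor gene, was at 0.0578 and 2.28 FPKM (log2 ratio 1.63), and Blcap at 18.3 and 5.26 FPKM (-1.63). The other calls, named after their values were seen, were Pon3 (6.81 and 21.1 FPKM) and Xist (0.242 and 1.61 FPKM), higher, and Ano1 (15.4 and 5.87 FPKM), lower. Igf2r, the maternally expressed receptor that clears IGF2, was at 17.2 and 33.8 FPKM (log2 ratio 0.94), just within 2-fold on this scale. Blcap has the same span as Nnat (92.3 and 126 FPKM), Igf2r as Airn (32.8 and 31.1 FPKM) and Xist as Tsix (0.228 and 0.318 FPKM). Without stated strand use, overlapping reads of each pair cannot be told apart. Gnas, which encodes the stimulatory G protein, was at 260 and 317 FPKM (0.28).

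The measured genes that keep imprints were all within 2-fold. Of 25 DNA methyltransferases, imprint-binding factors and repressive chromatin genes, 22 reached 1 FPKM and none was past 2-fold in either direction. The shares past it were 25.2% of all rows and 19.5% of protein-coding and lncRNA rows. Of the 22, 11 lay above 0 and 11 below, with a median log2 ratio of -0.00. The farthest from 0 were Hells, a chromatin remodeller needed for DNA methylation (139 and 76.1 FPKM, log2 ratio -0.86), Dnmt3a, a de novo methyltransferase (14.2 and 26.2 FPKM, 0.84), and Tet1, which oxidises methylated cytosine (12.9 and 23.8 FPKM, 0.84).

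Partners and relatives of the members had few calls, beside 25.2% of all rows and 19.5% of protein-coding and lncRNA rows past 2-fold in either direction. Among 15 measured CDK inhibitors, G1 cyclins, their kinases and targets (median log2 ratio -0.12), Cdk2 was the only call, at 40.1 FPKM in the control library and 19.5 FPKM in the mutant library, just past the 2-fold threshold. The inhibitor genes Cdkn1a (119 and 65.8 FPKM, log2 ratio -0.85) and Cdkn2d (8.91 and 4.99 FPKM, -0.73) were on the other side of 0 from Cdkn1c. Cdkn1b, which encodes p27 of the same family as p57 and was named after its values were seen, was at 12.4 and 13.6 FPKM (0.12), on the same side as Cdkn1c. Among 16 measured genes of the IGF and insulin receptor axis (median log2 ratio -0.12), Igf1, the second IGF ligand, was the only call, at 10.8 and 32.8 FPKM (1.52). Next in that list were Igfbp3, an IGF binding protein (6.56 and 10.3 FPKM, log2 ratio 0.57), and Hmga2, a growth-promoting chromatin protein (1.59 and 0.872 FPKM, -0.47). Both IGF ligand genes were thus at least 2-fold higher in the mutant library, while Grb10 and Igf2r were within 2-fold. IGF signalling was not tested. Among 12 measured relatives of the members (median log2 ratio -0.10), Mageh1, a MAGE gene like Ndn, was the only call, at 1.31 and 5.15 FPKM (1.41), and Plag1, the growth-promoting relative of Plagl1, was at 1.64 and 4.09 FPKM (0.95). Cdkn1a, given above, was the other of the 3 farthest from 0 in that list.

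Markers of other cell types differed between the same 2 pools, and the part of these cells in the members' differences was not tested. All 11 mesenchymal stromal markers were detected in both libraries, with a summed level of 1251 FPKM (control) and 996 FPKM (mutant), and none was past 2-fold (median log2 ratio -0.36). Nes itself, whose regulatory sequence drives the sorting reporter, was low at 4.84 and 3.00 FPKM. The 9 osteoblast markers summed to 6224 and 3178 FPKM, with 4 at least 2-fold lower (median -0.95). The 10 cartilage markers summed to 343 and 1898 FPKM, 1234 of the latter from Prg4, with 8 at least 2-fold higher (median 1.55).

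Skeletal muscle, in which H19, Igf2, Peg3 and Ndn are known to be active in progenitors, gave a mixed picture. Its 9 markers summed to 49.1 and 52.9 FPKM, and among 7 that reached 1 FPKM, 3 lay past 2-fold upward and 3 downward. The control library listed the myoblast factors Myog and Myod1 at 0, and the mutant library had them at 8.70 and 4.12 FPKM. Pax7 (9.26 and 17.0 FPKM) and Des (3.38 and 18.4 FPKM) of the same list were present in both libraries. The fibre gene Acta1 went the other way, at 23.6 FPKM in the control library and 0.719 FPKM in the mutant library (log2 ratio -3.84). The myosin gene Myh4 was at 0 in the control library and at 0.0516 FPKM in the other.

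Blood and vessel markers, the targets of the depletion, were present. The 9 haematopoietic stem and progenitor markers summed to 400 and 279 FPKM, with 5 at least 2-fold higher (median log2 ratio 1.08), among them Mecom (0.262 and 11.9 FPKM). Of the 9, 6 lay above 0 and 3 below, among the latter Gfi1b (296 and 160 FPKM) and Kit (69.0 and 48.5 FPKM). Slamf1, a stem cell marker, was listed at 0 in the control library. The 7 erythroid markers summed to 2305 and 1208 FPKM (median log2 ratio -0.78, 1 at least 2-fold lower). The 8 leukocyte markers summed to 1047 and 1337 FPKM (median 0.82, 4 at least 2-fold higher). Endothelial markers summed to 31.9 and 37.3 FPKM (median 0.13, 2 at least 2-fold higher). Pericyte and smooth muscle markers summed to 151 and 268 FPKM (median 0.60, 2 at least 2-fold higher). Fat cell markers, the setting in which Dlk1 is best known, summed to 117 and 126 FPKM (median 0.08), with Plin1 at 0 in the control library. Pparg, at 1.33 and 4.78 FPKM, was the only fat cell marker past 2-fold. Schwann cell and neuron markers summed to 46.5 and 129 FPKM (median 1.47, 4 at least 2-fold higher), with Prph, Snap25, Syt1 and Tubb3 at 0 in the control library.

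**Figure D5:**
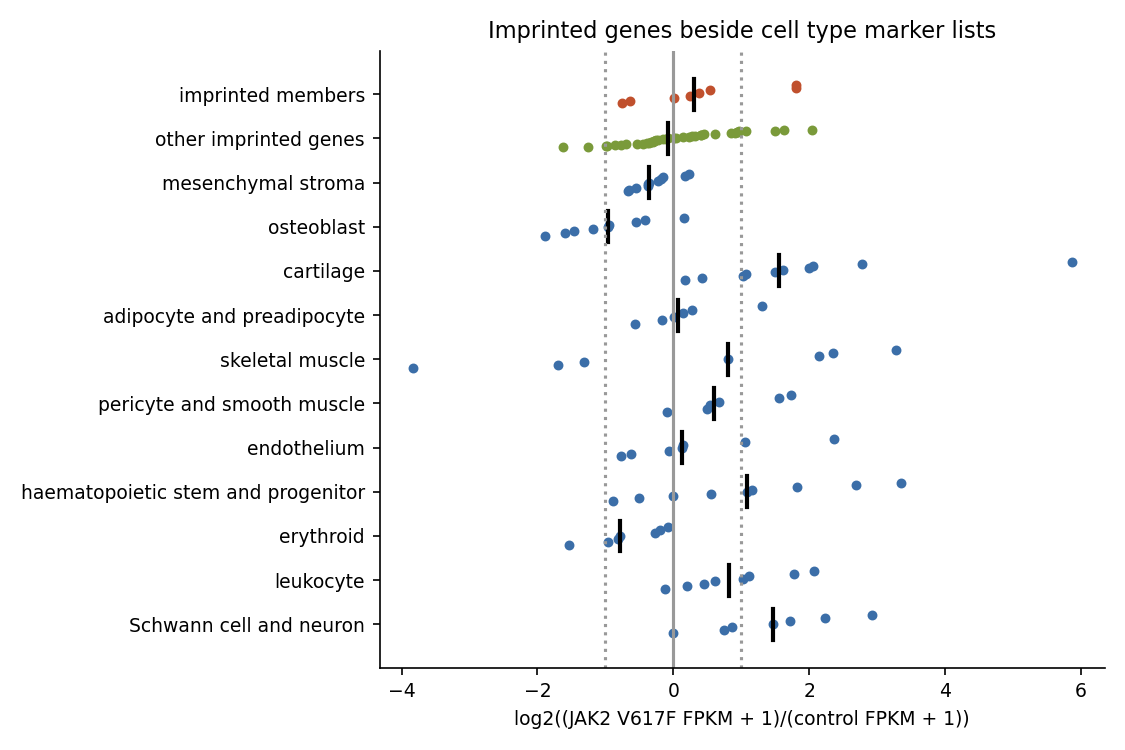
log2((JAK2 V617F FPKM + 1)/(control FPKM + 1)) of each gene at 1 FPKM or more (points) in the imprinted members, the other imprinted genes and the cell type marker lists, with the median of each list (vertical bars) and dotted lines at a 2-fold difference. The medians of the members (0.31) and other imprinted genes (-0.07) lie nearer 0 than those of osteoblast (-0.95) and cartilage markers (1.55). So do those of fat cell (0.08), endothelial (0.13) and mesenchymal stromal markers (-0.36).

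By parental copy, the medians of the members were close with the 1 FPKM minimum, but not with a minimum of 5 FPKM. The 4 measured maternally expressed members had a median log2 ratio of 0.31, from -0.64 (Grb10) to 1.81 (H19), and their rows summed to 102 FPKM in the control library and 101 FPKM in the mutant library. The 4 measured paternally expressed members had a median of 0.28, from -0.75 (Mest) to 1.81 (Ndn), and with Dlk1 their rows summed to 56.3 and 66.5 FPKM. Each group held 1 of 4 measured members past 2-fold, beside 25.2% of all rows in either direction. In each, 1 member lay below 0 and 3 above it. Ndn, the paternally expressed member past 2-fold, reached 1 FPKM only in the mutant library. Raising the minimum to 5 FPKM removed Ndn. The paternally expressed median then fell to 0.0136, while the maternally expressed median stayed at 0.31.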

How the data were processed

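Gene expression was measured in 1 control and 1 mutant (JAK2 V617F) library. Per the labels' protocols, RNA was amplified to cDNA (Ovation RNA-Seq System v2), fragmented by sonication and sequenced after preparation with a DNA kit, and no molecular identifiers are named. The deposited values are FPKM made by the authors on GRCm38. The tools named (per the submitters' processing notes) are Cufflinks, Bowtie2 2.0.6, TopHat2 2.0.7 and cutadapt 1.2.1. The sources used here do not give the annotation release, strand use or scaling between libraries. Of 27413 symbols matched to GENCODE vM21, 99.58% overlapped its locus.

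Log2 ratios used a pseudocount of 1 FPKM, a minimum of 1 FPKM in at least 1 library and a 2-fold threshold (Python 3.11.15, pandas 2.3.3, scipy 1.17.1). The members and lists were chosen with earlier results of these data known. The rule for named genes was all members, the 3 genes of each list farthest from 0, Igf2, Igf2r, Mirg, Gnas and Nes. Of the cell type lists, only some of those 3 are given, and Gfi1b, Kit, Pax7 and Des were added after their values were seen. Neighbours of the members are described by position, Nnat, Airn and Tsix for a shared span, and marker genes at 0 and Prg4 for its share of a sum. Symbols with several rows (Rb1) were left out of lists. Fragments were estimated from 4417 genes with 1 transcript, as FPKM times the length less 160 nt. Below 3.5 fragments, 81.7% of control and 84.8% of mutant estimates were whole numbers to within 0.2, against 40% for an even spread; offset and step were set to sharpen this. Alternatives varied the pseudocount, filter, scaling and threshold.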

Additional observations from a re-analysis of the deposited data

Results flagged for a closer look

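Some values lie outside the rows used above, which name 1 member each, and are higher in the mutant library than in the control library. A row that names AC152063.2 and SNORD113 together has the span of Rian in GENCODE vM21 to within 10 nt (chr12:109603945-109661709 in the table). It was at 6.27 FPKM in the control library and 15.46 FPKM in the mutant library (log2 ratio 1.18). Small nucleolar RNAs of the same region had 21 rows, all at 0 in the control library, and 4 of them, each named SNORD113, were above 0 in the mutant library, at 9686.53, 4474.28, 4467.21 and 3197.75 FPKM. The table gives 3 of these 4 rows the span of the Rian locus. The rows of these RNAs with a span of their own cover 68 to 82 nt, shorter than the 160 nt subtracted in the estimate of fragments, so the depth behind these values is unknown. Over all 35798 rows, too, more were above 0 in the mutant library (18883) than in the control library (16913).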

How the results depend on the processing

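No paired analysis was possible because each genotype has 1 library, and for the same reason no library could be left out. Rescaling both libraries to the same sum moved the median of all rows by 0.17. H19 stayed at least 2-fold higher in all 8 settings (log2 ratio 1.11 to 2.13), and the sign of each of the 8 measured members was the same in every setting it entered. With a pseudocount of 5 FPKM, Ndn was at 0.64 and H19 at 1.11, and 1 of 8 members was higher, beside 3.98% of all rows. At 5 FPKM or more, Ndn left the comparison and 1 of 7 members was higher, beside 9.35% of all rows. The paternally expressed median was then 0.0136, beside 0.31 for the maternally expressed members. After rescaling to the same sum, Peg3 was at 0.71 and Grb10 at -0.47, and the median was 0.48 for the members and 0.45 for the paternally expressed ones, beside 0.14 over all rows. At 1.5-fold, 2 of 8 members were lower (Mest and Grb10), beside 21.4% of all rows. Counting the shared row at the Rian locus as Rian, a row that the rule leaves out, was added after seeing the data. It gave 3 of 9 members higher, beside 13.8% of all rows, a median of 0.38 and a maternally expressed median of 0.38. For other imprinted genes, the count higher of 39 was 8 with a pseudocount of 0.1 FPKM (17.5% of all rows), 2 with 5 FPKM (3.98%), 7 under each of the 3 rescalings (14.8% to 16.3%) and 10 at 1.5-fold (22.4%), and 2 of 26 at 5 FPKM or more (9.35%). The count lower of 39 was 5 (14.4%), 1 (4.13%) and 7 (21.4%) with a pseudocount of 0.1, of 5 and at 1.5-fold, and 1 of 36 (11.4%) without Ano1, Gab1, Xist and Tsix (added after seeing the data). Their median changed sign, to 0.0915 with no filter and 0.10, 0.0052 and 0.0189 after rescaling to the same sum, the same upper quartile and a median of 0. The medians over all rows in these settings were 0.00, 0.14, 0.0487 and 0.0617. Depth limits Dlk1 and the control value of Ndn, at about 1 fragment.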
